A study of Mus musculus with 44 samples.

Results

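The comparison described here is that of inflamed Tnf ΔARE mice with non-inflamed littermates in the vehicle arm of a study of an MK2 kinase inhibitor in mouse models of inflammatory bowel disease. Its members are the 5 inflamed and the 5 non-inflamed vehicle libraries of the Tnf ΔARE model, 10 of the 44 samples of the series, and they were taken by their labels alone. The inflamed mice were C57BL/6 animals heterozygous for the ΔARE deletion (Tnf ΔARE/+), and the non-inflamed mice were littermates with both wild-type copies (Tnf +/+). Both groups were 16 weeks old when assigned to treatment and received only the vehicle, 0.5% methylcellulose with 0.025% Tween20 in PBS, which was given again after 16 h, with the tissue taken 90 min later (the study's design text gives another total time). Polyadenylated RNA from the intestine was sequenced from directional libraries. The labels count separate samples but do not state that each came from a separate mouse, so the p-values measure a spread between samples, which may be technical. That spread was estimated over all 21 libraries of the model, 11 of them given the MK2 inhibitor.

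Tumour necrosis factor (TNF) is a cytokine of macrophages and T cells whose messenger RNA carries AU-rich elements in its 3′ untranslated region. Proteins bound there hold down the stability and translation of the message, and the p38 and MK2 kinases relieve that control. Mice that lack the element in Tnf overproduce the cytokine and develop arthritis and an inflammation of the distal small intestine that resembles Crohn's disease. TNF acts through 2 receptors, encoded by Tnfrsf1a and Tnfrsf1b, and switches on NF-κB, a family of transcription factors that induces chemokines, adhesion molecules and its own inhibitors. The ileum, the last stretch of the small intestine, digests and absorbs nutrients through its enterocytes, recovers bile acids and keeps antimicrobial Paneth cells at the base of its crypts. The deletion is in the gene itself and every inflamed mouse carries it, so that its direct effect on Tnf cannot be told apart from that of the inflammation, and gene-level counts do not separate the alleles.

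The 10 libraries held 6771304 to 13113931 counts. All 5 non-inflamed libraries and 4 of the inflamed ones carry batch number 2 in the labels, and inflamed library 5 carries batch number 3. The label gives the tissue as intestine and the protocol names both distal colon and ileum. The small intestinal gene Sis, the brush border sucrase, measured 782 to 1544 CPM (counts relative to the library's total, on library sizes scaled by the TMM method) in the inflamed and 2634 to 4314 CPM in the non-inflamed libraries, against 0.37 to 1.21 CPM in the non-inflamed vehicle libraries of the colitis model in the same series. Hoxb13, which marks the distal colon, did not exceed 0.215 CPM in the 10 libraries and measured 266 to 610 CPM in those of the colitis model. Car1, a carbonic anhydrase of colonocytes, went against this in 3 libraries: it measured 740.5, 8.07, 416, 1.17 and 265 CPM in inflamed libraries 1 to 5, against 1.16, 2.64, 0.396, 1.99 and 2.07 CPM in non-inflamed libraries 1 to 5 and 523 to 2440 CPM in the colitis model. Aqp8, a water channel of colonocytes, was likewise at 17.01, 0, 12.8, 0 and 4.56 CPM in the inflamed libraries. Inflamed libraries 1, 3 and 5 thus hold more Car1 and Aqp8 than the others, and are called the Car1-high libraries below. The wider list of colonocyte and colonic goblet genes went in both directions. Of its 17 tested genes 6 were higher and 3 lower, and its sum was 2240.0, 1167, 1889, 2975 and 2803 CPM in the inflamed and 1311, 1578, 1658, 3210.2 and 1789.9 CPM in the non-inflamed libraries. Car4, another carbonic anhydrase of the list, measured 33.6 to 242 CPM in the inflamed, lowest in library 1, and 101 to 403 CPM in the non-inflamed libraries. Many results are also given without the Car1-high libraries, a choice made after the data were seen. Only inflamed libraries 2 and 4 remain then, so a lost call comes with fewer samples and need not mean a smaller fold. Among genes that lost the call, Gsdmc4 had a larger fold there than in the main fit (log2 fold change 2.39). Col1a2 had a smaller one (0.80). Sex is not labelled. Y-linked transcripts were present in 2 inflamed and 3 non-inflamed libraries, and their part in the results was not tested.

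Of 14370 genes tested, 1244 were higher (8.66%) and 1044 lower (7.27%) in the inflamed libraries at an adjusted p under 0.05, together 15.9%. These calls and all adjusted p-values below come from edgeR's quasi-likelihood test, Benjamini-Hochberg adjusted across the 14370 genes. The fold was at least 2 for 889 of the higher and 479 of the lower genes. All 5 inflamed libraries lay above all 5 non-inflamed ones for 863 genes (6.01%) and below them for 524 (3.65%). These shares of all tested genes are the background for the counts in the gene lists below. The median log2 fold change of all genes was -0.02. These calls draw their spread and batch term also from the inhibitor libraries. With the 2 vehicle groups fitted alone and no batch term, 1399 genes passed. Within batch 2 alone, with 4 inflamed against 5 non-inflamed libraries, 1310 genes passed, and without inflamed libraries 1, 3 and 5 the test called 772 higher and 384 lower. The inflamed tissue thus had more genes up than down. In the main fit the larger folds were mostly upward, with 152 genes higher by at least 8-fold and 13 lower by as much. Log2 fold changes are given as inflamed minus non-inflamed, with their standard errors. The values of single libraries are in CPM and follow the order of libraries 1 to 5.

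Tnf (ENSMUSG00000024401, chr17:35199381-35202007, minus strand on GRCm38) was the first check of the labels. It measured 39.3, 55.6, 41.7, 26.8 and 15.6 CPM in the inflamed and 1.88, 0.844, 1.09, 1.26 and 0.437 CPM in the non-inflamed libraries. Every inflamed library lay above every non-inflamed one, with a log2 fold change of 5.06 ± 0.41 (adjusted p = 1.16e-07). Among the 19 tested ligands and receptors of the TNF family, 7 rose and 0 fell, with a median of 0.96. The inducible receptor gene Tnfrsf1b measured 85.6, 72.9, 40.2, 39.1 and 51.7 CPM against 25.1, 14.8, 18.6, 11.9 and 13.2 CPM, a log2 fold change of 1.83 ± 0.26 (adjusted p = 5.27e-05). The widely expressed receptor gene Tnfrsf1a had a log2 fold change of 0.01 ± 0.13 (adjusted p = 0.977), at 133 to 186 CPM against 135 to 199.5 CPM. The change of one receptor gene against the other was not tested. Tnfsf13b, which encodes the B cell survival factor BAFF, rose by 3.96 ± 0.68 from a level near 0. Tnfsf13b was at 0 counts in the 4 non-inflamed libraries other than library 3. Tnfsf11, the RANK ligand of stromal cells, rose by 2.99 ± 0.51 and its decoy receptor gene Tnfrsf11b by 1.48 ± 0.34. Of these genes 5 passed without the Car1-high libraries. Tnfrsf11b did not pass within batch 2 alone (adjusted p = 0.0629).

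Genes that answer NF-κB and then restrain it rose in the majority of cases. Of 20 tested subunits and feedback genes 13 were higher and 0 lower, against 8.66% of all genes higher, with a median log2 fold change of 0.60. For 7 of them the groups did not overlap, against 6.01% of all genes above without overlap. The number of list genes called higher was 9 without the Car1-high libraries. Nfkbia, the inhibitor that holds NF-κB in the cytoplasm, measured 194, 297, 236, 192 and 123 CPM in the inflamed and 67.9, 61.2, 67.96, 136 and 78.7 CPM in the non-inflamed libraries. The log2 fold change was 1.42 ± 0.24 (adjusted p = 3.02e-04), with an overlap because non-inflamed library 4 lay above inflamed library 5. Tnip3, which binds the ubiquitin editor A20, measured 6.75, 17.99, 10.9, 5.25 and 3.62 CPM against 0.217, 0, 0, 0 and 0 CPM. With 3 counts in all non-inflamed libraries, its ratio of 155 has a 95% counting interval of 52.6 to 753, and its adjusted p was 2.20e-08. Tnip3 was at 0 counts in the 4 non-inflamed libraries other than library 1. The other feedback genes moved less. Tnfaip3, which encodes A20 itself, rose by 1.09 ± 0.15, and Birc3, a ubiquitin ligase of the TNF receptor complex, by 1.20 ± 0.15. The subunit gene Nfkb2 rose by 1.62 ± 0.16, the inhibitor gene Nfkbie by 2.01 ± 0.31 and Tnfaip2, a TNF-induced gene, by 2.76 ± 0.35. Traf1, a receptor adaptor, rose by 1.47 ± 0.39, Bcl3, a nuclear partner of NF-κB, by 0.86 ± 0.17, and Tnip1, another partner of A20, by 0.60 ± 0.15. Traf1 and Tnip1 did not pass without the Car1-high libraries (adjusted p = 0.0594 to 0.126).

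The sequence that NF-κB subunits bind, the κB site, can be read in the promoters of some of the genes described here, and 4 windows are shown as examples. Each holds the 250 bases before the RefSeq transcript start on GRCm38.p6, and capitals mark the κB letters searched for: GGG, any 2 bases, then TTTCC or TTCCC, read on either strand. Cxcl1 and Cxcl2 are neighbouring neutrophil chemokine genes, at chr5:90890995-90891244 (plus strand) and chr5:90903649-90903898 (plus strand). The Nfkbia window is at chr12:55492648-55492897 (minus strand) and that of Tnip3 at chr6:65590148-65590397 (plus strand).
Cxcl1: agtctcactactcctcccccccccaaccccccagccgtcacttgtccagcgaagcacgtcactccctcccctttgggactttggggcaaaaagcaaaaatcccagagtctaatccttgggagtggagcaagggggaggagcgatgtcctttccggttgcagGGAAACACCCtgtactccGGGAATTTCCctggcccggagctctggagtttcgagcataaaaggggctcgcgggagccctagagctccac
Cxcl2: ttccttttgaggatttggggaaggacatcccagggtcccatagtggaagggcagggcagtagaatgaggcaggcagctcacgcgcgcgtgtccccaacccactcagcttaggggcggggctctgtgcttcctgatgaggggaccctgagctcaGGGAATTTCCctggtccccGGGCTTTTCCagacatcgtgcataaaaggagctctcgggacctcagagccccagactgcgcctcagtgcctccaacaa
Nfkbia: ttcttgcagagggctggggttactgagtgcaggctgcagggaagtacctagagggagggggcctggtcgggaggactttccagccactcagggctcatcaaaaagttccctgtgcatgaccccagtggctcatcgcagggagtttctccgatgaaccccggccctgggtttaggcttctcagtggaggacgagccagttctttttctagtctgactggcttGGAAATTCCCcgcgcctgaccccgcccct
Tnip3: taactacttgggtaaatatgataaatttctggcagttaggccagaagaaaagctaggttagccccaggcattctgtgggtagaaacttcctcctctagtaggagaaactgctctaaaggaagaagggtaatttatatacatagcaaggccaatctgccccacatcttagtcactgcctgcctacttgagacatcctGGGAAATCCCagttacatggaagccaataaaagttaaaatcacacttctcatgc
The matches began at bases -89 and -71 from the start in Cxcl1, -97 and -78 in Cxcl2, -29 in Nfkbia and -54 in Tnip3. Nfkb2, Tnfaip3 and Tnip1 also had matches and are not printed. Other annotations can place the transcript start at a nearby base. The letters were found in 2.82% of all 32851 windows of this length, counted by window. The shares that follow are by gene, and a gene counts when any of its windows matched. By gene, 4.1% of the 10751 tested genes with a window had the letters. The letters occurred in 7 of the 17 NF-κB list genes with a window, in 7.82% of the 895 higher genes, 3.29% of the 791 lower genes and 3.81% of the 9065 genes that did not pass. No neutrophil list gene among 14 and no enterocyte digestion gene among 19 had a match. These motifs and windows were chosen after several motifs had been searched and the matches seen, so the shares are a description.

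Of 18 tested genes for proteins that act on AU-rich elements and for the p38 and MK2 kinases 4 rose and 0 fell, against 8.66% of all genes higher, and the median was 0.09. Zc3h12a, the RNase Regnase-1 that cuts cytokine messages, rose by 1.36 ± 0.33 (adjusted p = 0.00601), with all inflamed libraries above all non-inflamed ones. Dusp1, the phosphatase that turns off p38, rose by 0.97 ± 0.26 (adjusted p = 0.0148), and its adjusted p was 0.316 without the Car1-high libraries. Zfp36, whose protein tristetraprolin speeds the decay of Tnf messages, measured 14.8 to 36.6 CPM against 14.3 to 21.8 CPM, a log2 fold change of 0.33 ± 0.24 (adjusted p = 0.429). On the smaller set without the Car1-high libraries 1 gene of the list passed. Dusp1 did not pass within batch 2 alone (adjusted p = 0.0766).

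**Figure D1:**
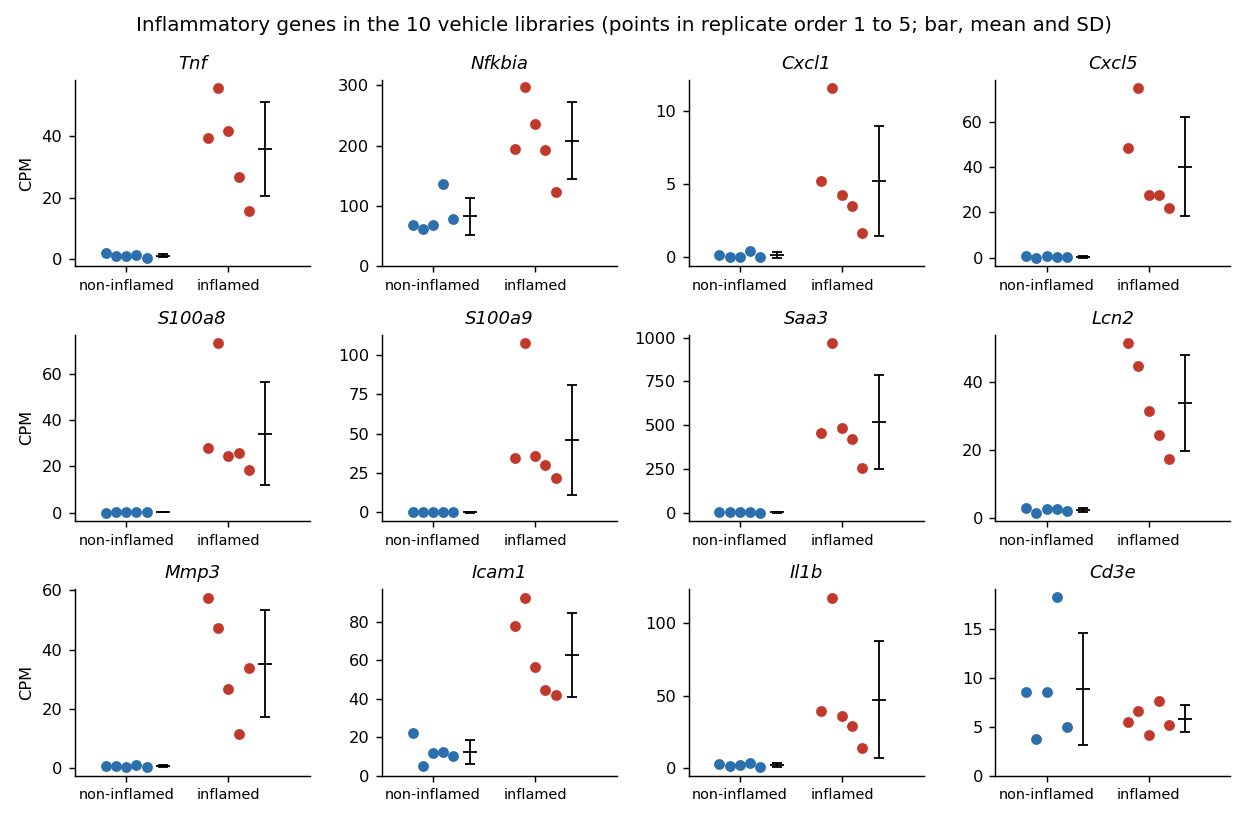
CPM of 12 genes in each of the 5 non-inflamed (blue) and 5 inflamed (red) vehicle libraries, with the mean and SD of each group beside the points. The inflamed libraries lie above all non-inflamed ones for Tnf (15.6 to 55.6 against 0.437 to 1.88 CPM) and S100a8 (18.5 to 73.4 against 0.0723 to 0.218 CPM), while the T cell gene Cd3e overlaps.

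Neutrophil transcripts rose steeply. Of 17 tested neutrophil genes 16 were higher, all 16 without overlap between groups, against 6.01% of all genes above without overlap. The median log2 fold change was 4.54. The list holds 25 genes, and those near 0 in the non-inflamed libraries could pass the filter on low counts only through other libraries. The count and the median thus describe the genes that passed it. The list's summed level was 329, 573, 255, 233 and 225 CPM in the inflamed and 14.9, 9.91, 14.2, 15.7 and 8.95 CPM in the non-inflamed libraries. S100a8 and S100a9 encode the subunits of calprotectin, the metal-binding protein that fills neutrophil cytoplasm. S100a8 (ENSMUSG00000056054, chr3:90668978-90670035, plus strand) measured 27.9, 73.4, 24.7, 25.8 and 18.5 CPM against 0.0723, 0.211, 0.198, 0.105 and 0.218 CPM. Its log2 fold change was 7.72 ± 0.48 (adjusted p = 1.53e-12), and inflamed library 2 stood highest. S100a9 rose by 8.04 ± 0.56. S100a9 had a log2 fold change of 7.44 without inflamed library 2. S100a9 had a log2 fold change of 8.86 without non-inflamed library 4. In whole tissue, more cells of a type and more RNA per cell cannot be told apart, which holds for every cell type gene below. The receptors of neutrophils rose as well: Cxcr2, the chemokine receptor, by 4.13 ± 0.41, Csf3r, the receptor for the growth factor G-CSF, by 4.54 ± 0.35, and Trem1, an amplifying receptor, by 4.35 ± 0.40. The lectin receptor gene Clec4e measured 27.4 to 114 CPM against 0 to 0.942 CPM and rose by 7.48 ± 0.59. Clec4e had a log2 fold change of 8.36 without non-inflamed library 4. Mmp9, a gelatinase of neutrophil granules, rose by 3.31 ± 0.25. Granule genes made early in the marrow were scarce: Mpo and Elane had 1 and 0 counts in the inflamed libraries, 1 and 3 in the non-inflamed ones, and were not tested. The neutrophil marker Ly6g was also too low to test, at 17 counts against 4 and with overlap between groups. Mmp8 was untested as well, at 47 counts against 1.

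The chemokines that draw neutrophils rose with them. Of 6 tested genes of CXC chemokines and receptors of neutrophils 5 were higher, and the median was 4.90. The list holds 11 genes, and the limit of the low-count filter given for the neutrophil genes applies here too. Cxcl5, made by epithelium and stroma, measured 48.7, 74.9, 27.5, 27.8 and 22.003 CPM against 0.795, 0, 0.892, 0.523 and 0.109 CPM and rose by 6.41 ± 0.50 (adjusted p = 3.41e-08). Cxcl1 measured 5.17, 11.6, 4.25, 3.499 and 1.61 CPM against 0.145, 0, 0, 0.418 and 0 CPM and rose by 5.50 ± 0.57 (adjusted p = 6.62e-08). Cxcl1 had a log2 fold change of 6.62 without non-inflamed library 4. Both were absent or nearly so in the non-inflamed tissue, and no library of one group reached the other. Cxcl2, whose promoter is printed above, had 121 counts in the inflamed and 3 in the non-inflamed libraries, a ratio of 43.7 with a 95% counting interval of 14.6 to 215 and a fitted log2 fold change of 5.27 ± 0.66. Cxcl2 had a log2 fold change of 6.25 without non-inflamed library 4. Cxcl3 was too low to test, at 45 counts against 2, and so was Csf3, the G-CSF gene, at 15 against 0.

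Monocyte and macrophage genes rose in part. Of 16 genes of recruited monocytes 6 rose and 0 fell, with a median of 1.10. Lyz2, the lysozyme of myeloid cells, measured 2384, 3457, 2472, 2038 and 1271 CPM against 280.3, 87.7, 149, 328 and 109 CPM, a log2 fold change of 3.68 ± 0.51 (adjusted p = 5.09e-05). F10, the clotting factor X gene that recruited macrophages express, rose by 6.67 ± 0.46. F10 had a log2 fold change of 7.28 without non-inflamed library 3. Chil3, a chitinase-like protein of myeloid cells, rose by 5.15 ± 0.71, the endotoxin co-receptor gene Cd14 by 2.84 ± 0.21, the monocyte chemokine receptor gene Ccr2 by 2.46 ± 0.43 and the monocyte surface gene Ly6c2 by 1.82 ± 0.40. Of 15 genes of resident macrophages 9 rose and 2 fell, with a median of 1.26. The list's sum overlapped between groups. It was 3921 to 8038 CPM in the inflamed and 4017 to 10612 CPM in the non-inflamed libraries. Cd68, a lysosomal protein of macrophages, rose by 2.68 ± 0.32, Csf1r, the receptor of their growth factor, by 2.11 ± 0.28, and C1qa, a chain of complement C1q, by 1.99 ± 0.28. Cx3cr1, the fractalkine receptor gene of gut macrophages, rose by 1.17 ± 0.32. Cx3cr1 did not pass the test without inflamed library 1 or 2 (adjusted p = 0.0536 to 0.0727). Mertk, a receptor for dying cells, went the other way and fell by 1.08 ± 0.24 on the log2 scale. The genes of tissue macrophages therefore moved in both directions. Gpr84, a fatty acid receptor of activated myeloid cells, had 230 counts against 1, a ratio of 249 with a 95% counting interval of 44.3 to 9890. Gpr84 was at 0 counts in the 4 non-inflamed libraries other than library 4. Outside the lists, and chosen after their values were seen, the scavenger receptor gene Marco rose by 5.46 ± 0.57, the lipid receptor gene Trem2 by 4.45 ± 0.38 and Ly6i, a Ly6 family surface gene, by 6.50 ± 0.53. Marco had a log2 fold change of 6.26 without non-inflamed library 1. Ly6c2 and Cx3cr1 did not pass without the Car1-high libraries (adjusted p = 0.0518 to 0.0608). Cx3cr1 did not pass within batch 2 alone (adjusted p = 0.0809).

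Dendritic cell genes rose in 8 of 13 tested cases, with a median of 1.43 and none lower. Sirpa, which marks one branch of these cells and is shared with macrophages, rose by 2.73 ± 0.29, and Itgax, the CD11c integrin, by 2.23 ± 0.28. Of 9 eosinophil and mast cell genes 4 rose, and 2 without inflamed library 1 or 2 or non-inflamed library 1, 2 or 3. Hdc, the enzyme that makes histamine and a gene of neutrophils too, rose by 3.94 ± 0.49. Hdc had a log2 fold change of 3.27 without inflamed library 2. Alox15, a lipoxygenase of eosinophils, rose by 3.22 ± 0.93, at 0.448 to 9.26 CPM in the inflamed and 0.211 to 0.594 CPM in the non-inflamed libraries, with an overlap between groups. Alox15 did not pass the test without inflamed library 1 or non-inflamed library 1 (adjusted p = 0.0507 to 0.0868). The eosinophil granule gene Epx was at 0 counts in the inflamed libraries and at 1 in the others, and the mast cell genes Kit and Mcpt1 did not pass, at 0.07 ± 0.39 and 0.18 ± 0.61.

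CC chemokines and receptors, which guide monocytes, dendritic cells and lymphocytes, were higher for 13 of 22 tested genes and lower for 0, with a median of 1.60. Ccl2, the main monocyte chemokine, measured 10.05, 26.2, 6.82, 8.16 and 7.51 CPM against 0.578, 0.105, 0.396, 1.05 and 0.109 CPM, a log2 fold change of 4.69 ± 0.47 (adjusted p = 8.08e-07). Its neighbour Ccl7, with similar targets, rose by 2.76 ± 0.51. Ccl19, which draws cells with CCR7 into lymphoid tissue, rose by 2.98 ± 0.57 and Ccl17, a dendritic cell chemokine, by 2.55 ± 0.47. Ccl20, the epithelial chemokine over lymphoid follicles, rose by 2.50 ± 0.73, with 1 non-inflamed library among the inflamed values. Ccl20 did not pass the test without inflamed library 2 or non-inflamed library 1, 2, 3 or 5 (adjusted p = 0.0507 to 0.0743). Ccl20 had a log2 fold change of 3.78 without non-inflamed library 4. Its receptor gene Ccr6 rose by 2.48 ± 0.62. Ccr6 had a log2 fold change of 4.15 without non-inflamed library 1. Of 11 genes of CXC chemokines and receptors of lymphocytes 4 rose. Cxcl13, the B cell follicle chemokine, measured 84.3, 156, 58.1, 55.3 and 54.6 CPM against 32.7, 2.11, 10.6, 20.8 and 10.6 CPM and rose by 2.44 ± 0.56 (adjusted p = 0.00465). Cxcl16 rose by 2.06 ± 0.27, and the interferon-induced Cxcl9 and Cxcl10 by 1.92 ± 0.41 and 2.00 ± 0.33. Ccr6 and Cxcl9 did not pass without the Car1-high libraries (adjusted p = 0.0554 to 0.06). Ccl20 and Ccr6 did not pass within batch 2 alone (adjusted p = 0.0547 to 0.0595).

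None of 22 T cell genes passed in either direction, with 1 or 2 passing when inflamed library 3 or non-inflamed library 1, 2 or 4 was left out, and their median was 0.04. Cd3e, a CD3 chain of T cells, measured 5.53, 6.65, 4.14, 7.697 and 5.23 CPM against 8.53, 3.796, 8.62, 18.3 and 5.02 CPM (log2 fold change -0.56 ± 0.41, adjusted p = 0.436). The groups overlapped throughout, and the T cell list summed to between 59.7 and 288 CPM among the non-inflamed libraries alone. Of 10 genes of cytotoxic lymphocytes and natural killer cells 2 fell and 0 rose. Gzma, a granzyme of intraepithelial lymphocytes, measured 12.2, 7.63, 49.2, 48.05 and 12.9 CPM against 69.02, 23.6, 123, 312 and 76.5 CPM, a log2 fold change of -2.16 ± 0.67 (adjusted p = 0.0327). Gzma did not pass the test without inflamed library 1, 2 or 5 or non-inflamed library 3 or 4 (adjusted p = 0.0542 to 0.132). Gzma had a log2 fold change of -1.42 without non-inflamed library 4. Cd160, a receptor of the same cells, changed by -1.70 ± 0.50. Cd160 did not pass the test without inflamed library 1 or 2 or non-inflamed library 4 (adjusted p = 0.0676 to 0.0841). Neither passed without the Car1-high libraries (adjusted p = 0.208 and 0.256). None of 16 B cell and follicle genes passed, with a median of 0.50. Their sum was 591, 27.4, 227, 355 and 213 CPM in the non-inflamed libraries, with non-inflamed library 2 far below the rest. Cd79a, a B cell receptor subunit, had a log2 fold change of 1.04 ± 0.55 (adjusted p = 0.239). Gzma and Cd160 did not pass within batch 2 alone (adjusted p = 0.125 to 0.143).

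Some antibody genes rose. Of 15 genes of plasma cells and immunoglobulin A transport 6 rose, with a median of 1.14, and their sum was 22912, 27307, 28348, 22785 and 19805 CPM in the inflamed and 14756, 9184, 15624, 14637 and 5783 CPM in the non-inflamed libraries. Igha, the heavy chain of the gut antibody class, measured 11578, 12652, 13077, 10174 and 8674 CPM against 5732, 3805, 6364, 4674 and 1692 CPM and rose by 1.40 ± 0.34 (adjusted p = 0.00621, and 0.0714 without the Car1-high libraries). The immunoglobulin G genes Ighg2c and Ighg2b, which share sequence, rose by 3.56 ± 0.53 and 2.63 ± 0.62. Ighg2c had a log2 fold change of 4.26 without non-inflamed library 1. Another subclass gene, Ighg1, did not pass, at 1.84 ± 0.74 (adjusted p = 0.105), and it passed without non-inflamed library 1 (adjusted p = 0.0175). The subclass gene Ighg3 had a negative fold without the Car1-high libraries, at -0.96 (adjusted p = 0.627). Pigr, which carries the antibody across the epithelium, had a log2 fold change of -0.21 ± 0.21. On the smaller set without the Car1-high libraries 2 genes of the list passed.

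**Figure D2:**
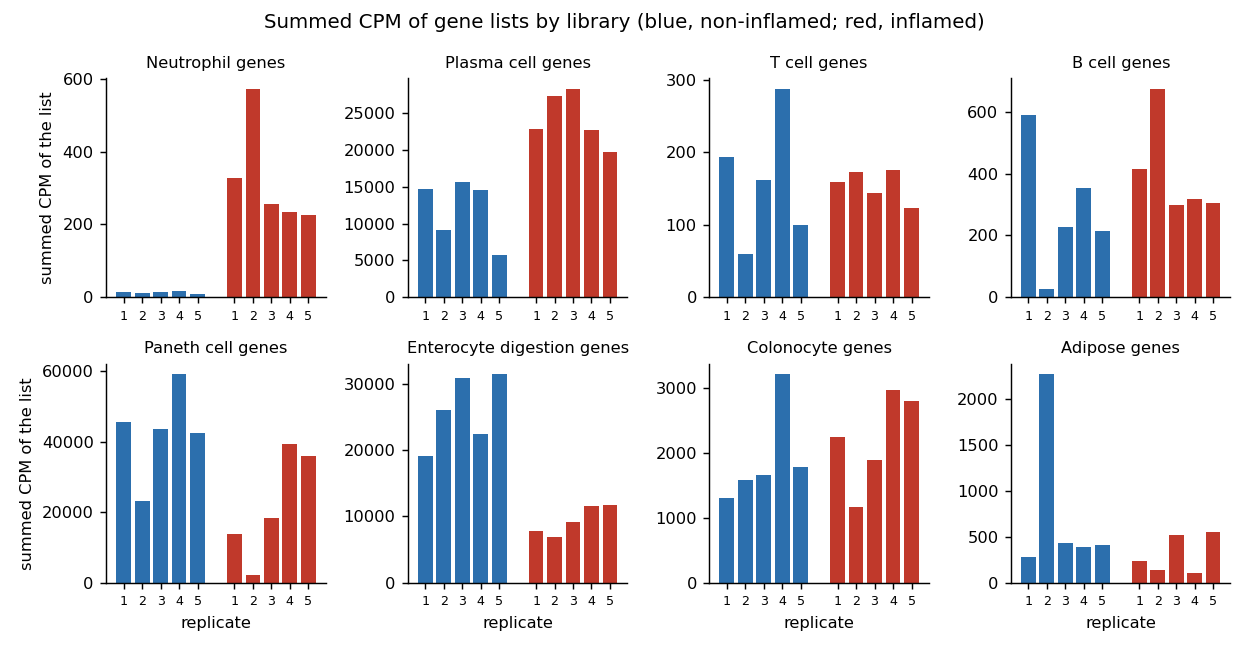
Summed CPM of 8 gene lists in each vehicle library, with the 5 non-inflamed libraries in blue and the 5 inflamed ones in red, by replicate number. The neutrophil sum lies at 225 to 573 CPM in the inflamed and 8.95 to 15.7 CPM in the non-inflamed libraries, while T and B cell sums overlap and the adipose sum is highest in non-inflamed library 2.

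Interleukin-1 genes were among the most raised cytokines. Of 15 tested family members 10 rose and 1 fell, with a median of 1.85. Il1b measured 39.7, 118, 36.03, 28.7 and 14.1 CPM against 2.82, 1.27, 1.78, 3.45 and 0.437 CPM, a log2 fold change of 4.69 ± 0.54 (adjusted p = 6.53e-06). Il1b had a log2 fold change of 4.06 without inflamed library 2. Its antagonist gene Il1rn measured 118, 311, 128, 70.3 and 48.8 CPM against 4.48, 2.11, 2.67, 7.01 and 3.93 CPM and rose by 5.18 ± 0.42 (adjusted p = 8.45e-08). The ligand and the antagonist were thus raised in the same 5 libraries. Il1a rose by 3.39 ± 0.34 and the decoy receptor gene Il1r2 by 3.13 ± 0.34. Il1f8, an IL-36 cytokine of epithelium, had 142 counts in the inflamed libraries and 0 in the others, at least 51.3-fold higher against a limit of 3 counts over the group. Il18rap, a subunit of the IL-18 receptor, rose by 1.85 ± 0.40, while Il18 fell by 1.46 ± 0.43 on the log2 scale. Il18 did not pass the test without inflamed library 1, 2 or 3 or non-inflamed library 4 (adjusted p = 0.0579 to 0.0649). Il18 did not pass without the Car1-high libraries (adjusted p = 0.194).

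Against 8.66% of all genes higher, 1 of 9 tested genes of the interleukin-6 family rose, namely Osmr, the oncostatin M receptor, by 1.25 ± 0.40. Osmr did not pass the test without inflamed library 1, 2 or 5 or non-inflamed library 3, 4 or 5 (adjusted p = 0.0548 to 0.145). Il6 and Osm were too low to test, at 8 counts against 0 and 38 against 14. Of 9 genes of the interleukin-17, 22 and 23 axis 2 rose and 3 fell, with 4 higher without non-inflamed library 1 and 1 lower without non-inflamed library 5. The receptor genes Il17rc and Il22ra1 were lower without the Car1-high libraries, at -0.91 (adjusted p = 0.0222) and -0.75 (adjusted p = 0.0429). Il22ra2, the soluble receptor that neutralizes IL-22, measured 102, 131, 110.1, 39.8 and 37.8 CPM against 15.97, 2.53, 8.12, 14.6 and 6.33 CPM and rose by 3.25 ± 0.49 (adjusted p = 1.22e-04). Il17a rose by 2.41 ± 0.72 at 1.07 to 3.38 CPM. Il17a did not pass the test without inflamed library 2 or non-inflamed library 2, 3 or 5 (adjusted p = 0.0596 to 0.0763). Il17a had a log2 fold change of 3.39 without non-inflamed library 4. Il22 itself was too low to test, at 16 counts against 6, as was Ifng, at 21 against 24. Of 22 genes answering interferon gamma 3 rose, among them the guanylate-binding protein genes Gbp2 and Gbp3, by 1.55 ± 0.32 and 1.29 ± 0.20, and Iigp1, a GTPase against intracellular parasites, by 1.35 ± 0.41. Iigp1 did not pass the test without inflamed library 1, 2 or 3 or non-inflamed library 2, 3 or 5 (adjusted p = 0.0579 to 0.086). Their median was 0.36. Of 20 genes answering type I interferon 1 rose and 1 fell: Ifit2, which binds foreign RNA, rose by 1.66 ± 0.25, and Cmpk2, a nucleotide kinase, fell by 1.15 ± 0.21 on the log2 scale. These counts are near the background of 15.9% of all genes called. Without non-inflamed library 4 the genes higher numbered 5 in the interferon gamma and 4 in the type I list. Osmr, Il17a and Iigp1 did not pass without the Car1-high libraries (adjusted p = 0.124 to 0.316). Osmr did not pass within batch 2 alone (adjusted p = 0.13).

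Genes of tissue remodelling rose in part. Of 15 matrix metalloproteinases and inhibitors 9 were higher, with a median of 1.30. Mmp3, a stromal protease that cuts many matrix proteins, measured 57.5, 47.2, 26.6, 11.3 and 33.8 CPM against 0.723, 0.633, 0.297, 0.942 and 0.218 CPM and rose by 5.94 ± 0.47 (adjusted p = 6.51e-08). Mmp12, the elastase of macrophages, rose by 2.98 ± 0.25, and Timp1, an inhibitor of these enzymes, by 3.42 ± 0.39. Of 21 genes of activated fibroblasts 12 rose and 0 fell. The list's sum overlapped between groups, at 563 to 1000 CPM in the inflamed and 399 to 1255 CPM in the non-inflamed libraries. Chil1, a chitinase-like protein of inflamed epithelium and stroma, rose by 5.26 ± 0.39, and Il13ra2, the decoy receptor of IL-13, by 4.11 ± 0.55. Against 8.66% of all genes higher, 2 of 15 collagen genes were higher. These were Col5a2, at 1.17 ± 0.36, and Col1a2, at 1.15 ± 0.38, and neither passed without the Car1-high libraries (adjusted p = 0.378 and 0.325). Col5a2 did not pass the test without inflamed library 1 or 5 or non-inflamed library 1 or 5 (adjusted p = 0.0507 to 0.177). Col1a2 did not pass the test without inflamed library 1, 2 or 5 or non-inflamed library 3, 4 or 5 (adjusted p = 0.0569 to 0.231). Sema3e, a guidance protein outside the lists and chosen after its values were seen, rose by 3.59 ± 0.23 with a spread of 14.1 to 21.1 CPM against 0.764 to 2.11 CPM. Col5a2 and Col1a2 did not pass within batch 2 alone (adjusted p = 0.155 to 0.186).

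Genes by which leukocytes leave the blood at the vessel wall rose in part. Of 16 adhesion and homing genes 8 were higher and 0 lower, with a median of 1.03. Icam1, the ligand of leukocyte integrins, measured 77.7, 92.4, 56.7, 44.3 and 41.99 CPM against 22.2, 5.17, 11.99, 12.3 and 10.2 CPM and rose by 2.40 ± 0.37 (adjusted p = 1.39e-04). Madcam1, the gut address of lymphocytes, rose by 2.14 ± 0.48, Vcam1 by 1.85 ± 0.32 and Selp, the P-selectin that slows rolling cells, by 2.13 ± 0.45. The vessel genes Pecam1 and Cdh5 did not pass, at 0.18 ± 0.25 and 0.05 ± 0.40. Of these genes 4 passed without the Car1-high libraries and 5 without inflamed library 1.

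**Figure D3:**
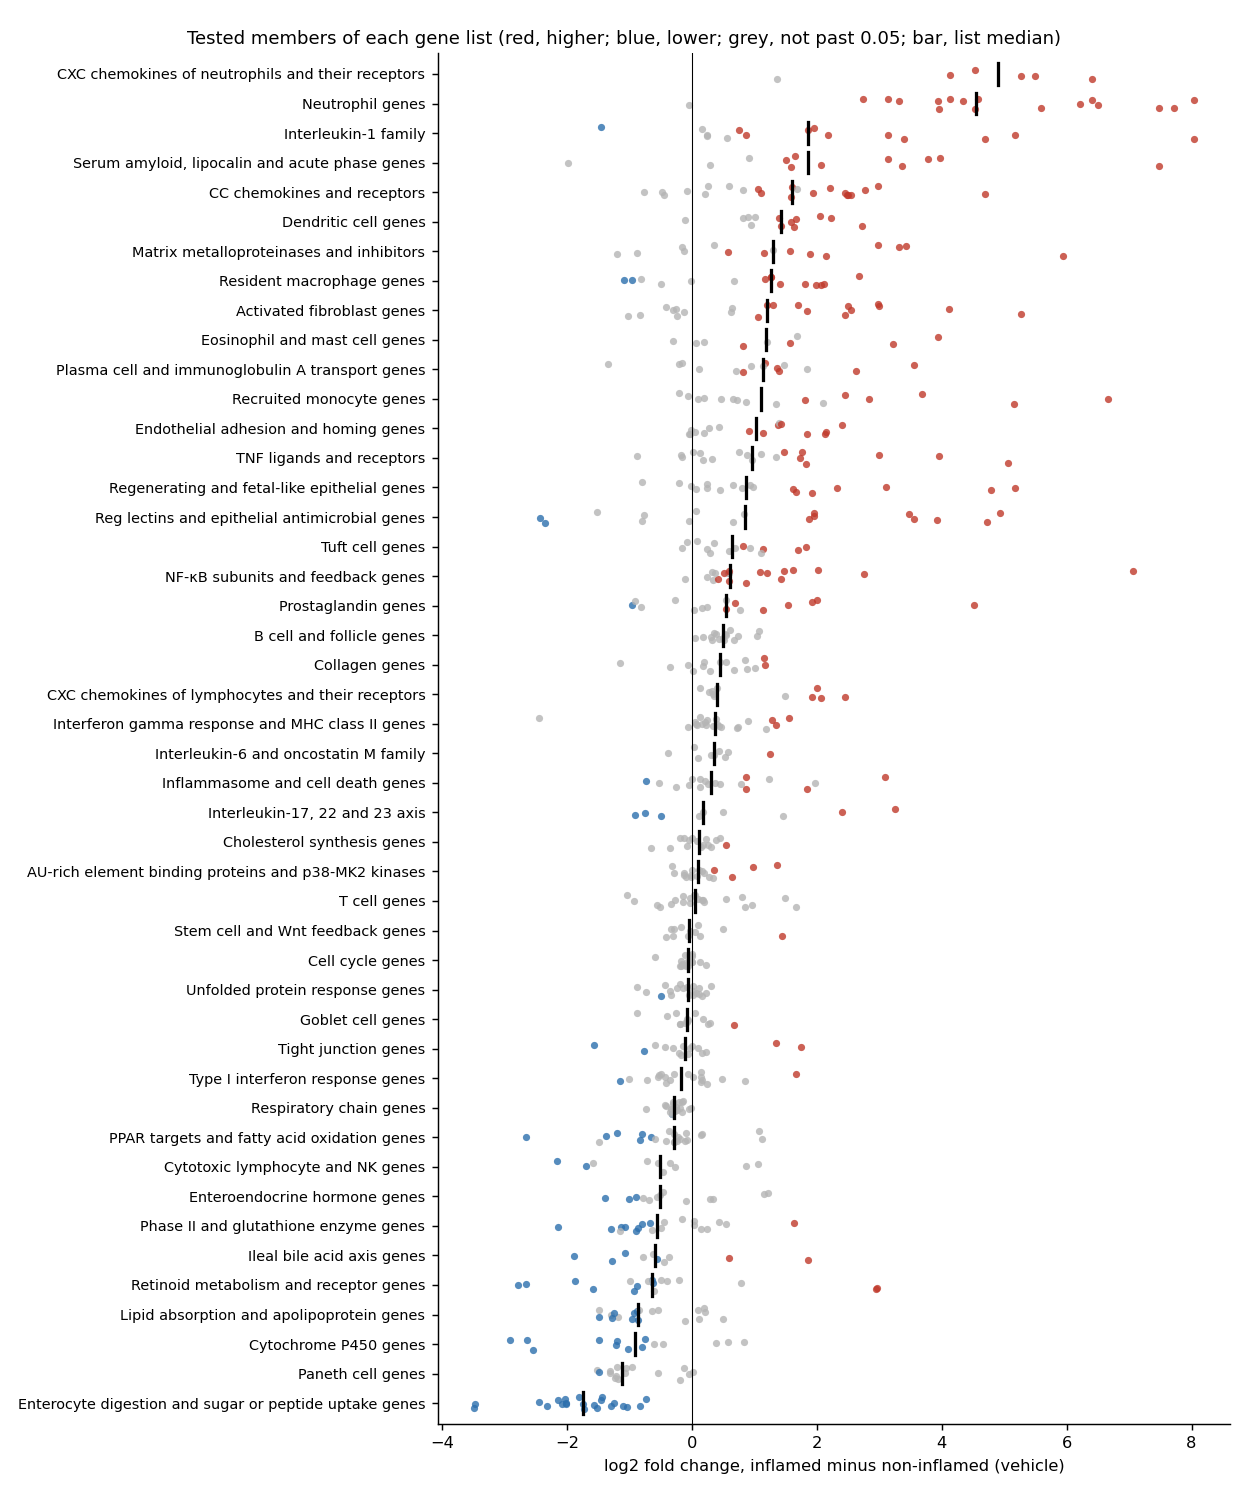
Log2 fold change (inflamed minus non-inflamed) of every tested member of the gene lists with at least 6 tested members, 1 line per list, ordered by the list median (black bar), with genes that passed in red (higher) or blue (lower). Medians run from -1.74 in the enterocyte digestion list to 4.90 in the neutrophil chemokine list.

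Acute phase genes and some epithelial defence genes rose. Of 12 serum amyloid, lipocalin and acute phase genes 9 were higher and 0 lower, with a median of 1.85 and a lowest value of -1.99. The serum amyloid gene Saa2 was at 0 counts in both groups. Saa1 did not pass without the Car1-high libraries, at -1.59 (adjusted p = 0.481). Saa3 (ENSMUSG00000040026, chr7:46711998-46715700, minus strand), an amyloid protein of epithelium and macrophages, measured 453, 969, 483, 419.8 and 253 CPM against 3.18, 1.16, 3.47, 6.49 and 0.764 CPM and rose by 7.48 ± 0.54 (adjusted p = 2.40e-08). Lcn2, which withholds iron from bacteria, measured 51.3, 44.7, 31.4, 24.3 and 17.2 CPM against 2.75, 1.48, 2.48, 2.62 and 2.07 CPM and rose by 3.97 ± 0.29 (adjusted p = 2.76e-08). The complement gene C3 rose by 3.14 ± 0.43, the copper carrier gene Cp by 3.37 ± 0.32 and Hp, haptoglobin, by 3.78 ± 0.49. Hp had a log2 fold change of 4.54 without non-inflamed library 2. Of 17 lectin and antimicrobial genes 8 rose and 2 fell, with 4 lower without inflamed library 4 and 1 without non-inflamed library 4. The oxidase genes rose: Nox1 by 4.93 ± 0.59 and Duox2 by 1.95 ± 0.26. Sprr1a, a cornified envelope protein, rose by 3.92 ± 0.38 and the protease inhibitor gene Slpi by 1.87 ± 0.33. Retnlb, a bactericidal goblet cell protein and a gene of the colon, rose by 4.73 ± 1.17, at 63.7, 5.996, 3.58, 40.6 and 44.8 CPM. Retnlb had a log2 fold change of 3.89 without inflamed library 1.

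The Reg3 lectins, which kill bacteria at the mucosal surface, went down or did not pass. Reg3b measured 808, 1804, 5771, 1090.3 and 1364 CPM in the inflamed and 4516, 5269, 6578, 31762 and 7187 CPM in the non-inflamed libraries, with non-inflamed library 4 far above the rest. Its log2 fold change was -2.35 ± 0.63 (adjusted p = 0.0142). Reg3b did not pass the test without non-inflamed library 4 (adjusted p = 0.0716). Reg3b had a log2 fold change of -1.42 without non-inflamed library 4. Reg3b had a log2 fold change of -3.25 without inflamed library 3. Reg3a measured 8.25 to 30.1 CPM against 57.7 to 159 CPM without overlap and fell by 2.44 ± 0.36 on the log2 scale. Reg3g had a log2 fold change of -0.80 ± 0.55 (adjusted p = 0.393), and 0.13 without non-inflamed library 4. The genes of this family are similar in sequence, and reads shared between them could be split among them in the estimated counts. Reg3b did not pass within batch 2 alone (adjusted p = 0.115).

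Genes of a regenerating epithelium rose in 7 of 18 tested cases with none lower. Clu, which marks revival stem cells after injury, measured 1129, 895, 587, 538 and 540.4 CPM against 196, 23.2, 73.1, 92.3 and 64.1 CPM and rose by 3.11 ± 0.49 (adjusted p = 1.61e-04). Anxa8, an annexin of stratified epithelium, rose by 4.79 ± 0.71, Anxa3 by 1.61 ± 0.22, the urokinase receptor gene Plaur by 2.32 ± 0.32 and the keratin gene Krt7 by 1.67 ± 0.15. Of the list of pyloric gland and gastric-type genes 3 could be tested. Among them Cd44, a hyaluronan receptor not limited to gastric-type cells, rose by 2.22 ± 0.22, and 2 did not pass. The rest of the list was too low to test. Tff1 had 18 counts in the inflamed against 0 in the non-inflamed libraries, Tff2 7 against 0, Muc1 35 against 9 and Gkn3 23 against 7. Aqp5 went the other way, at 1 against 3, Bpifb1 had 1 against 0 and Pgc 1 against 1. The mucin genes Muc5ac and Muc6 and the genes Gkn1 and Gkn2 were at 0 counts in all 10 libraries. None of 19 cell cycle genes passed, and their log2 fold changes ran from -0.60 to 0.23. Among 12 stem cell and Wnt feedback genes 1 rose, against 8.66% of all genes. This was Prom1, by 1.44 ± 0.18, while Lgr5, the receptor that marks crypt stem cells, was at -0.29 ± 0.30 (adjusted p = 0.627).

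Against 7.27% of all genes lower, 1 of 16 Paneth cell genes fell and 0 rose, with a list median of -1.13. The count of lower genes was 9 without inflamed library 4, 2 with DESeq2 or with limma-voom and quality weights, and 0 without inflamed library 1 or non-inflamed library 4, with the 2 vehicle groups fitted alone, within batch 2 alone and without the Car1-high libraries. The median ran from -1.96 to -0.78 over the alternatives. The list's sum was 13922, 2262, 18421, 39418 and 35994 CPM in the inflamed and 45561, 23089, 43710.5, 59107 and 42376 CPM in the non-inflamed libraries, with inflamed library 2 lowest. Lyz1, the lysozyme of these cells, changed by -1.49 ± 0.45 (adjusted p = 0.0264), and its adjusted p was 0.164 within batch 2. Lyz1 did not pass the test without inflamed library 1 or non-inflamed library 4 (adjusted p = 0.0613 to 0.0618). Defa24, an alpha defensin from a family of near-identical copies, measured 2305, 159, 2957, 7772 and 7402 CPM against 8706, 4707, 7822, 9711 and 7687 CPM and did not pass (adjusted p = 0.162), but it passed without inflamed library 4 (adjusted p = 0.0255). Of 14 goblet cell genes 1 rose, the potassium channel gene Kcnk6, by 0.67 ± 0.14, against 8.66% of all genes higher. Of 14 tuft cell genes 4 rose, among them Alox5ap and Hpgds, which serve the making of leukotrienes and prostaglandin D2, by 1.83 ± 0.30 and 1.14 ± 0.23. Both are also expressed by leukocytes, and the tuft cell regulator Pou2f3 was at 0.59 ± 0.62 and did not pass. Of 13 hormone genes 3 fell, with Nts, neurotensin, at -1.40 ± 0.31 and Sst, somatostatin, at -1.01 ± 0.23. Within batch 2 and without the Car1-high libraries none of the hormone genes passed. Lyz1, Kcnk6, Nts and Sst did not pass without the Car1-high libraries (adjusted p = 0.0734 to 0.16). Nts and Sst did not pass within batch 2 alone (adjusted p = 0.0592 to 0.0762).

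Genes of the absorptive enterocyte fell. Of 22 listed genes for digestion and for sugar or peptide uptake all passed the filter on low counts. All 22 of 22 were lower, 16 of them without overlap, and the median log2 fold change was -1.74. The background was 7.27% of genes lower and 3.65% below without overlap. The list summed to 7819.5, 6844, 9168, 11561 and 11676 CPM in the inflamed and 19028, 26052, 30872, 22457 and 31379 CPM in the non-inflamed libraries. Every inflamed sum was below every non-inflamed sum. Within batch 2 alone 19 of the genes passed, and without the Car1-high libraries 14 did, with a median of -1.67.

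The disaccharidase gene Sis (ENSMUSG00000027790, chr3:72888557-72967863, minus strand) measured 1016, 782, 953, 1189.9 and 1544 CPM against 2634, 2895, 4269, 2699 and 4314 CPM and fell, with a log2 fold change of -1.73 ± 0.26 (adjusted p = 1.16e-04). Enpep, an aminopeptidase of the brush border, measured 513, 550.4, 605, 719 and 842 CPM against 2162, 2709, 2675, 2066 and 2731 CPM, a log2 fold change of -2.03 ± 0.19 (adjusted p = 7.54e-07). In both genes the highest inflamed library stayed below the lowest non-inflamed one. The other peptidases moved alike, with log2 fold changes of -2.45 ± 0.33 for Mme, -1.82 ± 0.31 for Anpep and -1.75 ± 0.20 for Dpp4. Treh, which splits trehalose, was at -2.15 ± 0.32. Among transporters, Slc5a12, a sodium-coupled lactate carrier, measured 6.53, 2.94, 6.601, 8.05 and 10.3 CPM against 36.6, 54.8, 93.4, 67.9 and 95.7 CPM and changed by -3.48 ± 0.44 (adjusted p = 1.88e-05). Slc6a18 and Slc6a19, carriers of neutral amino acids, were at -3.49 ± 0.49 and -2.02 ± 0.26. Slc5a1, the glucose carrier, was at -1.30 ± 0.23 and Slc15a1, the peptide carrier, at -1.46 ± 0.30. Outside the list, and chosen after their values were seen, the sulfate and citrate carrier genes Slc13a1 and Slc13a2 were at -2.96 ± 0.31 and -1.95 ± 0.19. The lowest genes by the rule also held Unc93a2 and Unc93a, of a family related in sequence, at -3.85 ± 0.43 and -3.47 ± 0.65. Unc93a had a log2 fold change of -4.14 without inflamed library 3. Slc15a1 did not pass without the Car1-high libraries (adjusted p = 0.0835).

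Lipid handling fell in part. Of 19 genes 7 were lower, with a median of -0.86. Fabp2, the fatty acid carrier of enterocytes, was at -1.50 ± 0.37, Mogat2, which rebuilds triglyceride, at -1.29 ± 0.28, and Mttp, which loads it on lipoproteins, at -1.26 ± 0.23. Apoa1, the main protein of these particles, measured 2924 to 7962 CPM against 3480.1 to 14225 CPM and did not pass (-0.55 ± 0.35, adjusted p = 0.337). On the smaller set without the Car1-high libraries 3 genes of the list passed. Fabp2 and Mogat2 did not pass without the Car1-high libraries (adjusted p = 0.0673 to 0.0889). Fabp2 and Mogat2 did not pass within batch 2 alone (adjusted p = 0.0572 to 0.0656).

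**Figure D4:**
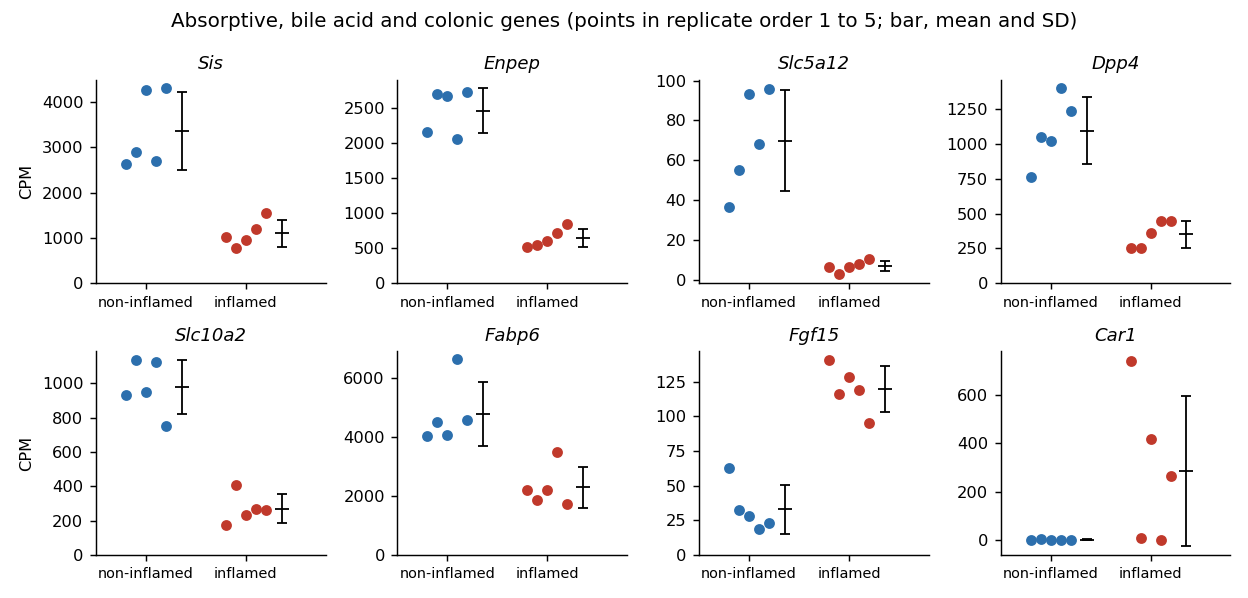
CPM of 8 genes in each of the 5 non-inflamed (blue) and 5 inflamed (red) vehicle libraries, with the mean and SD of each group beside the points. Sis, Enpep, Slc5a12, Dpp4, Slc10a2 and Fabp6 lie lower in all inflamed libraries, Fgf15 lies higher (95.5 to 141 against 18.3 to 62.9 CPM) and Car1 is above 100 CPM in 3 inflamed libraries only.

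The bile acid genes of the ileum split, with 2 of 10 tested genes higher and 4 lower. The ileum takes up bile acids through the transporter ASBT, carries them on a binding protein, passes them to the blood and releases the hormone FGF15, which lowers their synthesis in the liver. Slc10a2, the ASBT gene, measured 176, 409, 235, 265 and 259.9 CPM against 932, 1135, 949, 1127 and 751 CPM and fell, with a log2 fold change of -1.89 ± 0.28 (adjusted p = 9.79e-05). Fabp6, the binding protein gene, measured 2209, 1851, 2181, 3468 and 1715 CPM against 4009, 4517, 4067, 6638 and 4574 CPM and fell, with a log2 fold change of -1.08 ± 0.25 (adjusted p = 0.0052). Fgf15 (ENSMUSG00000031073, chr7:144896531-144900953, plus strand) went up, from 62.9, 32.6, 27.8, 18.3 and 23.04 CPM to 141, 116, 128, 119 and 95.5 CPM, a log2 fold change of 1.86 ± 0.49 (adjusted p = 0.0114). None of the 3 genes overlapped between groups. The basolateral exporter gene Slc51a was at -1.28 ± 0.24. Without the Car1-high libraries Slc10a2 still passed (-1.55, adjusted p = 0.0169), while Fabp6 was at -0.85 (adjusted p = 0.122), Slc51a at -0.83 (adjusted p = 0.0576) and Fgf15 at 1.81 (adjusted p = 0.0877).

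Metabolic genes of the enterocyte fell in part. Of 14 cytochrome P450 genes, which oxidize drugs and fatty acids, 9 were lower. Cyp4b1 measured 10.8, 14.2, 17.2, 23.6 and 26.6 CPM against 41.6, 125, 106, 141 and 204 CPM and fell, with a log2 fold change of -2.92 ± 0.43 (adjusted p = 8.12e-05). Cyp2d26 was at -2.65 ± 0.49, Cyp3a13 at -1.21 ± 0.28 and Cyp27a1, a sterol hydroxylase, at -1.22 ± 0.23. Genes of this family are close copies, and counts may be split among them. Cyp3a44, among the 10 lowest genes, was at -3.08 ± 0.75. Without the Car1-high libraries 2 of the P450 list were lower and 1 higher. Of 20 conjugation and glutathione genes 8 fell (5 without inflamed library 1 or non-inflamed library 5) and 1 rose: the glucuronosyltransferase gene Ugt2b5 was at -2.15 ± 0.30, the sulfotransferase gene Sult1d1 at -1.30 ± 0.26 and the carboxylesterase gene Ces2e at -1.13 ± 0.21, while Ugt1a6a rose by 1.64 ± 0.32. Cyp2d26, Cyp3a13, Cyp27a1, Cyp3a44 and Ugt1a6a did not pass without the Car1-high libraries (adjusted p = 0.0573 to 0.134). Cyp3a13 did not pass within batch 2 alone (adjusted p = 0.0608).

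Retinoid genes moved both ways. The gut makes vitamin A from carotene and stores or oxidizes it, and retinoic acid instructs gut immune cells. Of 17 tested genes 8 fell (5 without inflamed library 1 or 2) and 2 rose. Aldh1a1, which makes retinoic acid, measured 40.1, 34.995, 33.2, 40.6 and 58.8 CPM against 192, 299, 152, 299 and 329 CPM and fell, with a log2 fold change of -2.78 ± 0.29 (adjusted p = 1.97e-06). Bco1, which splits carotene, was at -2.67 ± 0.49 and Lrat, which esterifies retinol, at -1.88 ± 0.29. Stra6, a membrane receptor for the binding protein that carries retinol in blood, rose by 2.95 ± 0.56. Stra6 had a log2 fold change of 3.60 without non-inflamed library 1. Of 23 PPAR target and fatty acid oxidation genes 6 fell. Angptl4, a lipase inhibitor induced by PPARs, was at -2.66 ± 0.38 and Ppargc1a, a coactivator of mitochondrial genes, at -1.38 ± 0.32. Ppargc1a did not pass without the Car1-high libraries (adjusted p = 0.0736).

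The background for the next lists was 8.66% of all genes higher and 7.27% lower. Of 21 respiratory chain genes 1 was lower, Ndufs1, at -0.32 ± 0.10. Ndufs1 did not pass the test without inflamed library 1, 2, 4 or 5 or non-inflamed library 3, 4 or 5 (adjusted p = 0.0569 to 0.139). Of 16 cholesterol synthesis genes 1 was higher, Fdps, at 0.54 ± 0.18 with an adjusted p that rounds to the threshold. Fdps did not pass the test without inflamed library 1, 2 or 3 or non-inflamed library 1, 3 or 5 (adjusted p = 0.0605 to 0.211). Of 20 unfolded protein response genes 1 was lower, the chaperone gene Canx, at -0.50 ± 0.13. Of 16 tight junction genes 2 rose and 2 fell (0 fell without inflamed library 1 or 2 or non-inflamed library 4, and 1 when any other library was left out but inflamed library 5): Cldn1 was at 1.74 ± 0.38, Cldn4 at 1.34 ± 0.32 and Cldn8 at -1.57 ± 0.48. Cldn8 did not pass the test without inflamed library 1, 2, 3 or 4 or non-inflamed library 1, 2 or 4 (adjusted p = 0.0501 to 0.0973). Of 16 prostaglandin genes 7 rose and 1 fell. Ptgs2, the inducible cyclooxygenase, rose by 1.53 ± 0.30 and Tbxas1, which makes thromboxane, by 2.00 ± 0.27. Pla2g4c, a phospholipase, was at 4.51 ± 1.26, with 118, 28.5, 5.59, 1139 and 1162 CPM in the inflamed libraries and overlap between groups. Pla2g4c did not pass the test without inflamed library 4 (adjusted p = 0.217). Pla2g4c had a log2 fold change of 1.87 without inflamed library 4. Of 18 inflammasome and cell death genes 4 rose and 1 fell, with 2 higher under RLE scaling, within batch 2 alone or without non-inflamed library 1, 2, 3 or 5, and 1 without the Car1-high libraries. Nlrp3, the sensor that activates interleukin-1, rose by 3.08 ± 0.39, and Gsdmc4, a gasdermin with close copies, by 1.84 ± 0.62. Gsdmc4 did not pass the test without inflamed library 1 or 4 or non-inflamed library 1, 2, 3 or 5 (adjusted p = 0.0785 to 0.311). Gsdmc4 had a log2 fold change of 0.94 without inflamed library 4. Ndufs1, Fdps, Canx, Cldn8 and Gsdmc4 did not pass without the Car1-high libraries (adjusted p = 0.0523 to 0.12). Ndufs1, Fdps, Canx and Gsdmc4 did not pass within batch 2 alone (adjusted p = 0.0597 to 0.213).

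Some of the largest folds rest on few libraries. Aqp8 had 385 counts in the inflamed libraries against 1, a ratio of 418 with a 95% counting interval of 74.5 to 16500, and Car1 was at 7.21 ± 1.70. These are the colonocyte genes named above, and without inflamed libraries 1, 3 and 5 they were at -1.34 (adjusted p = 0.899) and 1.51 (adjusted p = 0.629). Aqp8 had a log2 fold change of 6.86 without inflamed library 1. Aqp8 was at 0 counts in the 4 non-inflamed libraries other than library 1. Car1 had a log2 fold change of 6.10 without inflamed library 1. Snx8, a sorting nexin, had 148 counts in the inflamed and 0 in the non-inflamed libraries, at least 53.5-fold higher, but measured 6.67, 1.96, 0, 4.32 and 0 CPM in the inflamed libraries. Snx8 did not pass the test without inflamed library 1, 2, 4 or 5 or non-inflamed library 1, 2, 3, 4 or 5 (adjusted p = 0.0561 to 0.146). Syde2, a regulator of small GTPases, was at -3.90 ± 1.10, Cpt1b, a carnitine transferase of muscle, at -3.05 ± 1.01 and Cyp4f40 at -3.23 ± 1.06. Syde2 did not pass the test without inflamed library 2 or non-inflamed library 1 (adjusted p = 0.0511 to 0.0603). Syde2 had a log2 fold change of -3.27 without non-inflamed library 1. Syde2 was at 0 counts in the 4 inflamed libraries other than library 1. Cpt1b did not pass the test without inflamed library 1, 3, 4 or 5 or non-inflamed library 3, 4 or 5 (adjusted p = 0.0664 to 0.127). Cpt1b had a log2 fold change of -4.70 without inflamed library 2. Cyp4f40 did not pass the test without inflamed library 1, 2, 3 or 4 or non-inflamed library 3, 4 or 5 (adjusted p = 0.0585 to 0.117). Cyp4f40 was at 0 counts in the 4 inflamed libraries other than library 5. Lep, the fat hormone leptin, was at -3.23 ± 0.88 and Inmt, a methyltransferase, at -3.47 ± 0.80, and both were highest in non-inflamed library 2. Lep did not pass the test without non-inflamed library 2 (adjusted p = 0.0611). Lep had a log2 fold change of -2.47 without non-inflamed library 2. Lep had a log2 fold change of -4.26 without inflamed library 1. Inmt had a log2 fold change of -4.37 without inflamed library 3. Inmt had a log2 fold change of -2.71 without non-inflamed library 2. That library also had the highest adipose sum, at 278, 2268, 435, 387 and 415 CPM in non-inflamed libraries 1 to 5 against 231, 143, 515, 110.1 and 551 CPM in the inflamed ones. Against 7.27% of all genes lower, 2 of 11 adipose genes fell, 1 of 13 smooth muscle genes and 3 of 13 genes of enteric neurons and glia. Against 8.66% of all genes higher, 2 of 5 red cell genes rose. With 1 library left out these counts ran from 0 to 4 for smooth muscle, 1 to 7 for neuron and glia and 0 to 4 for red cell genes, the last at 4 without inflamed library 1 or 5 and at 0 without inflamed library 2 or 3 or non-inflamed library 1, 3 or 5. The adipose count was 0 without non-inflamed library 2, and those of smooth muscle and of neurons and glia were highest without non-inflamed library 4. The smooth muscle count was 0 without inflamed library 1, 2, 3 or 5 or non-inflamed library 1 or 2, and the neuron and glia count was lowest without inflamed library 1. The pancreatic list could be tested for 1 gene, which did not pass. The part of these tissues in the results was not tested. Snx8, Syde2, Cpt1b, Lep and Inmt did not pass without the Car1-high libraries (adjusted p = 0.054 to 0.371). Cpt1b did not pass within batch 2 alone (adjusted p = 0.163).

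The same genotypes were also compared under the MK2 inhibitor, in 6 inflamed and 5 non-inflamed libraries that share no sample with the vehicle groups but entered the same fit. There 1791 genes passed (12.5%), 1136 higher (7.91%) and 655 lower (4.56%). Of the genes called under vehicle, 901 were also higher and 569 also lower under the inhibitor, which is 64.2% of the vehicle calls and 82.1% of the inhibitor calls, and 0 were called in opposite directions. The difference between the 2 inflammation effects was tested directly, and 0 genes passed in edgeR, with 252 at an unadjusted p under 0.05, 3 in DESeq2 and 0 in limma-voom. The log2 fold change under the inhibitor was 5.06 for Tnf, 8.17 for S100a8, 7.83 for Saa3 and -2.21 for Enpep. The values under vehicle were 5.06, 7.72, 7.48 and -2.03. Hp stood at 7.52 under the inhibitor and 3.78 under vehicle, and Tnfsf13b at 1.24 and 3.96, without passing the test of the difference. Car1 was at 3.53 under the inhibitor (adjusted p = 0.658). Of the 6 inflamed inhibitor libraries 5 are in batch 3, whereas 4 of the 5 inflamed vehicle libraries are in batch 2, and all non-inflamed libraries of both treatments are in batch 2. Batch and treatment are thus partly confounded in the inflamed groups, and batch and genotype are nearly confounded under the inhibitor. Batch 3 holds inflamed libraries only, so the batch term rests on these. Both comparisons share that term, and their agreement is not that of 2 independent fits.

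**Figure D5:**
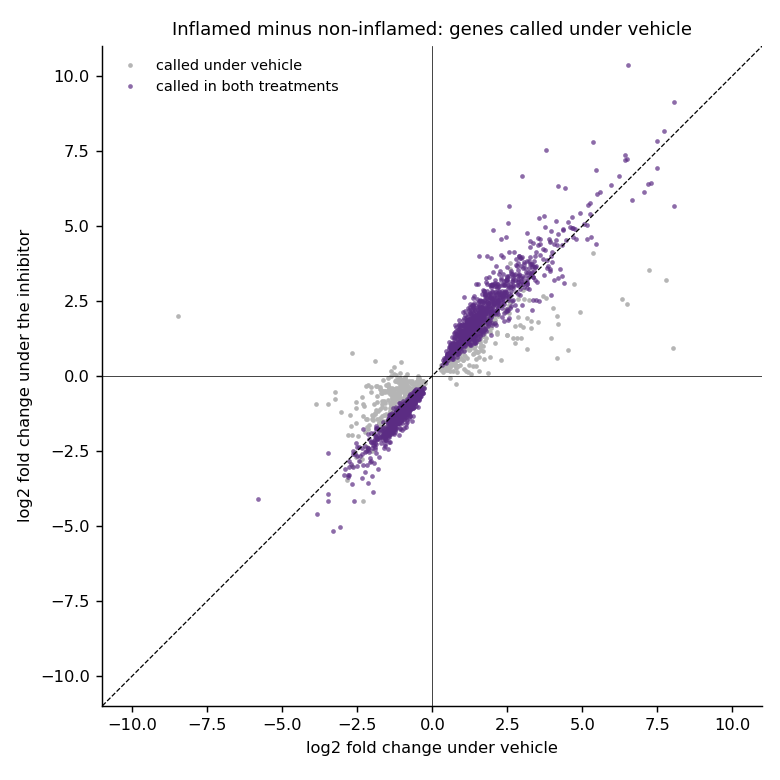
Log2 fold change (inflamed minus non-inflamed) under vehicle on the x axis and under the MK2 inhibitor on the y axis for the 2288 genes called under vehicle, with those called in both treatments in purple and the others in grey, and a dashed line of equality. Of these genes 1242 of the 1244 higher and 1034 of the 1044 lower have the same sign under the inhibitor.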

How the data were processed

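Gene-level expected counts of 21 libraries of the Tnf ΔARE model, estimated by the authors with Salmon 0.14.1 on mm10 (GRCm38) per the submitters' processing notes and deposited as whole numbers, were used as deposited. The annotation release is not given in the sources used here. A table of normalized signal, deposited by the authors and scaled per gene and library, served as an alternative. Of 29720 gene IDs 29464 matched GENCODE M21, which gave symbols and coordinates. All columns of per-sample values matched a sample.

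The 4 groups (vehicle or inhibitor, inflamed or not) were fitted together in edgeR 4.0.16 (R 4.3.3) with group and batch as terms, filterByExpr, TMM scaling and robust quasi-likelihood F-tests, two-sided, with Benjamini-Hochberg adjustment over 14370 genes and a threshold of 0.05. The current quasi-likelihood method was chosen over the earlier one after both counts had been seen. Levels are CPM on TMM-scaled library sizes, and the standard error of a fold change was taken as its size divided by the square root of F. Depth was 6771304 to 13113931 counts a library. Counting intervals are exact 95% intervals and, like the floor of 3 counts, cover counting error only. In data simulated from these libraries, the fit recovered 51 of 100 genes changed by 1 and 90 of 100 changed by 2 on the log2 scale. Alternatives used limma 3.58.1, DESeq2 1.42.0, other filters, scalings and sets of libraries.

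Named genes are Tnf, the 2 called members of each list with the largest fold at a mean of at least 1 CPM, and the 10 highest and 10 lowest called genes at that mean, without unnamed gene models, pseudogenes and receptor segments. Lists of other tissues named no gene, and some genes are not reported here. Of 182 genes followed through the alternatives 90 were further examples chosen after their values were seen. The members and lists were chosen with earlier results of these data known. Promoter sequences are RefSeq's, on GRCm38.p6.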

Additional observations from a re-analysis of the deposited data

Results flagged for a closer look

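Each group of 5 libraries was searched for a highest or lowest library set apart from the rest, with a gap of more than 0.71 of the group's range (Dixon's 95% critical value for 5). Of 364 groups of named genes 43 met it. The rate of about 1 in 20 groups by chance holds for independent values from a normal distribution. It need not hold for CPM, which are skewed and move together between genes of a library. A group with counts in 1 library only meets the limit by construction. The number expected by chance was not tested. Values are in CPM. Inflamed library 1 stood highest of its group in Syde2 (0.574, next 0). Inflamed library 2 stood highest of its group in Ccl2 (26.2, next 10.05), S100a9 (108, next 36.1), S100a8 (73.4, next 27.9), Hdc (19.1, next 6.27), Chil1 (39.7, next 18.7), Clec4e (114, next 52.2), Cpt1b (1.09, next 0.144), Trem1 (15.9, next 7.61), Cd79a (119.9, next 66.8), Ccl7 (4.25, next 1.75), Il1b (118, next 39.7) and Anxa3 (29.98, next 19.5). Inflamed library 3 stood highest of its group in Reg3b (5771, next 1804). Inflamed library 4 stood highest of its group in Chil3 (7.46, next 5.45) and Fabp6 (3468, next 2209). Inflamed library 5 stood highest of its group in Cldn8 (7.11, next 2.799), Cyp4f40 (13.7, next 0), Aldh1a1 (58.8, next 40.6) and Lrat (14.4, next 8.17). Inflamed library 5 stood lowest of its group in Zc3h12a (66.01, next 108). Non-inflamed library 1 stood highest of its group in Tnip3 (0.217, next 0), Ighg2c (16.98, next 5.65), Aqp8 (0.0723, next 0), Ccr6 (3.54, next 0.764), Vcam1 (27.6, next 12.8) and Marco (0.650, next 0.218). Non-inflamed library 2 stood highest of its group in Chil3 (0.316, next 0.109), Cldn1 (2.003, next 0.793), Inmt (5.69, next 1.37), Lep (5.799, next 1.78), Cyp3a44 (37.4, next 13.8) and Hp (30.7, next 9.11). Non-inflamed library 3 stood highest of its group in Tnfsf13b (1.39, next 0). Non-inflamed library 4 stood highest of its group in Cxcl16 (105, next 48.4), Chil1 (1.05, next 0.506), Sst (37.7, next 25.3), Gpr84 (0.105, next 0), Nfkbia (136, next 78.7), Ccl20 (33.1, next 7.15), Reg3b (31762, next 7187), Reg3g (14244, next 3391) and Fabp6 (6638, next 4574).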

How the results depend on the processing

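The count of called genes, 2288, was 1399 when the 2 vehicle groups were fitted alone without a batch term, 1310 in batch 2 alone and 1156 without inflamed libraries 1, 3 and 5, with fewer samples in each. The share of called genes that were higher was 54.4%, and 61.8%, 62.1% and 66.8% in these 3 fits. Leaving out 1 library at a time gave 1747 to 2695 genes, and 0 to 0 for the difference between vehicle and inhibitor. That difference was called for 3 genes by DESeq2 and for 1 gene without inflamed libraries 1, 3 and 5. The other alternatives gave 1797 (the deposited normalized signal) to 2710 genes, among them 2157 with edgeR's earlier quasi-likelihood method, which called 2154 of the same genes. The replicate block gave 2258 genes. Same-numbered libraries of the 2 groups correlated at 0.479, -0.061, -0.111, 0.311 and 0.044, over 0.1 in 2 of 5 pairs, the 2 that also correlated best with their own number, so the numbers were not taken to pair the mice. Over all alternatives, 3709 values of named genes kept their direction and side of the threshold, 268 no longer passed and 2 newly passed. Another 9 reversed. Aqp8 was at -1.34 without inflamed libraries 1, 3 and 5. Reg3g was at 0.07 without non-inflamed libraries 2 and 4 and ran from -1.33 to 0.13 with 1 library left out, the highest without non-inflamed library 4. Tnfrsf1a was at 0 with the 2 vehicle groups alone, at -0.02 without the batch term, at -0.02, -0.02 and -0.01 without inflamed library 2, 3 or 4 and, over all such fits, from -0.07 without non-inflamed library 1 to 0.09 without non-inflamed library 4. The cause of these changes was not tested. Of 173 called named genes 23 lost the call and 31 moved by over 1.5 times when 1 library was left out, 43 in all. With 1 library left out, counts of called genes also moved by 1 in the lists of bile acid (2 to 1 higher without inflamed library 1 or non-inflamed library 2 or 5), pyloric gland (1 to 2 higher, inflamed 4 or non-inflamed 3), stem cell (1 to 2 higher, inflamed 3), unfolded protein response (1 to 2 lower, inflamed 2 or non-inflamed 1 or 4) and interleukin-1 genes (1 to 0 lower, inflamed 1, 2 or 3 or non-inflamed 4). Depth limits the cytokine and chemokine genes with few counts, such as Il6, Csf3 and Il22, which could not be tested.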
